A study of Mus musculus with 10 samples.

Results

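The transcription factors of the tuft lineage examined here were 7 genes, Pou2f3, Gfi1b, Spib, Hmx2, Hmx3, Sox4 and Sox9, chosen by symbol from the 43432 gene identifiers of the count files. All 7 were among the 19281 genes that passed the filter on low counts, and the lowest count of any of them in any library was 29. RNA-seq was performed on sorted cells of 3 kinds: thymic tuft cells (n = 4), small intestinal (SI) tuft cells (n = 3) and SI epithelium (n = 3). Every library came from 1 naive male mouse of 12 weeks on the C57BL6 background, homozygous for Flare25, which marks cells that express the cytokine gene Il25 by fluorescence and which the SI epithelium controls carry too. All cells were sorted as DAPI-negative, CD45-negative and EPCAM-positive. Reporter-positive cells made up both tuft groups and reporter-negative cells the SI epithelium, so a tuft cell here is an epithelial cell that reported Il25. Each thymic tuft library was made from 1350 to 1900 cells, each SI tuft library from 35000 to 36000 and each SI epithelium library from 52000 to 57000. Thymic cells were freed with enzymes and intestinal cells with DTT and EDTA, and the effects of organ, dissociation and cell number cannot be told apart between thymus and intestine.

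Tuft cells are rare chemosensory cells of epithelia, and their formation in intestine and thymus requires Pou2f3, a POU domain factor that binds the octamer motif and works with small coactivator proteins. Gfi1b is a zinc finger repressor best known from erythroid and megakaryocyte development, and Spib is an ETS factor of B cells, plasmacytoid dendritic cells and intestinal M cells. Hmx2 and Hmx3 are neighbouring homeobox genes known in the mouse for the inner ear and hypothalamus, and Sox4 and Sox9 are HMG box factors, Sox9 being known in the intestine from crypt stem cells, progenitors and Paneth cells.

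Of the 7 factors, 5 (Pou2f3, Gfi1b, Spib, Hmx2 and Hmx3) were between 47.5 and 112 times as abundant in SI tuft cells as in SI epithelium, and Sox9 was 5.34 times as abundant, whereas Sox4 did not pass the test (22.3% of all genes tested were called there). Thymic tuft cells had 10.4-fold less Hmx2 and 3.89-fold less Gfi1b than SI tuft cells, and 3.83-fold more Sox4. Spib and Sox9 did not pass the test between the organs. Pou2f3 and Hmx3 passed it as lower in thymic tuft cells, but both calls depended on the processing; 51.6% of all genes were called between the organs.

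The libraries held 38659882 to 73574745 gene counts, of which mitochondrial genes took 4.38% to 5.97% in thymic tuft, 24.1% to 33.5% in SI tuft and 18.6% to 23.7% in SI epithelium libraries. TMM, the scaling of library sizes used for all levels here, ran from 0.661 to 1.43 and was above 1 in thymic libraries alone. The summed level of 24 tuft cell markers was 9428 to 10994 CPM (counts relative to the scaled library size) in thymic tuft cells and 36882 to 46081 CPM in SI tuft cells, against 378 to 644 CPM in SI epithelium. These markers were chosen with earlier results of these data known and include Il25 itself, so they are no independent check of the labels. Libraries were not fully separate. SI epithelium libraries 1, 2 and 3 held genes of the thymus, at a median of 0.585%, 0.601% and 0.600% of the counts of thymic tuft libraries 3, 2 and 1, over 282 genes nearly absent from SI tuft cells. In the other direction, over 8 genes, these thymic libraries held 0.917%, 0.956% and 0.876% of the counts of their SI epithelium partners. Log2 fold changes over SI epithelium of the factors that were low there are therefore also given after these shares were subtracted. That of Atoh1 in thymic tuft cells was treated likewise. Other listed genes and marker sums are given without subtraction, so their low SI epithelium levels can include counts of the partner thymic library.

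The promoters of Gfi1b and Spib are shown because each holds a sequence like the octamer, the motif that POU2 proteins bind. Sequences are those of RefSeq on GRCm38.p6, 5′ to 3′ on the gene's strand and outside annotated exons, with the octamer-like letters in capitals; the positions are chr2:28621983-28622232 (minus strand) for Gfi1b and chr7:44532072-44532321 (minus strand) for Spib.
Gfi1b: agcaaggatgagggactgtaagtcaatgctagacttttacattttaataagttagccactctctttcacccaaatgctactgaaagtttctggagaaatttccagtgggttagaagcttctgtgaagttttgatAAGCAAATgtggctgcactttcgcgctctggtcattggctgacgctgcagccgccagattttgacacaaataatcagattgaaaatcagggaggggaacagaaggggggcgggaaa
Spib: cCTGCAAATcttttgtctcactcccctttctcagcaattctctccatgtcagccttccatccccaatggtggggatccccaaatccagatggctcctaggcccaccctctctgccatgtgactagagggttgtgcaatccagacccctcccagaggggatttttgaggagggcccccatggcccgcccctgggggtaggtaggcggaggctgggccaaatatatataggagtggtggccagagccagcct
The site AAGCAAAT began 116 bases before the start of Gfi1b and CTGCAAAT began 249 bases before that of Spib, and each differs from the octamer ATGCAAAT at 1 base. The promoter table had entries for 5 of the 7 factors, all but Pou2f3 and Sox9. Searched on both strands in windows of 250 bases before to 50 after each start, no promoter of these 5 held the exact octamer, and with up to 1 mismatch 2 of their 6 promoters did (33.3%), against 1.74% and 18.6% of 32851 promoters. Of the 24 tuft cell markers 20 had entries, and 2 of their 25 promoters (8%) held the exact octamer and 7 of 25 (28%) held it with up to 1 mismatch. A match is a description of the letters in these windows only.

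The start regions of Hmx3 and Hmx2 are shown because these adjacent genes differed in their thymic levels. They lie on the plus strand at chr7:131542713-131542866 and chr7:131548507-131548756, from the same source.
Hmx3: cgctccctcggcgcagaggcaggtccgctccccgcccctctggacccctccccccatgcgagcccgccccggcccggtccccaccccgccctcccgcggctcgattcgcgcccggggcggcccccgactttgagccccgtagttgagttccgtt
Hmx2: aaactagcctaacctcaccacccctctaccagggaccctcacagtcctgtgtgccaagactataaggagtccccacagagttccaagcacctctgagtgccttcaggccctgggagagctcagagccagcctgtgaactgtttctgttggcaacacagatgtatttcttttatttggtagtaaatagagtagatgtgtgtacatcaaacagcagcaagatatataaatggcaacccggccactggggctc
No octamer, exact or with 1 mismatch, was found in either. The Hmx3 stretch of 154 bases was 77.3% G and C and the Hmx2 stretch of 250 bases 49.6%. These shares cover unlike lengths, as each stretch ends where an annotated exon begins or after 250 bases. The read length and the handling of reads that map to several places are not given in the sources used here, so how reads of Hmx2 and Hmx3 were told apart is not known.

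Pou2f3 (ENSMUSG00000032015, GRCm38 chromosome 9, 43123939 to 43210369, minus strand) was high in both kinds of tuft cell. Its levels were 446, 500, 517 and 506 CPM in thymic tuft cells, 689, 800 and 592 CPM in SI tuft cells and 11.9, 11.8 and 15.2 CPM in SI epithelium. No group overlapped another, and thymic libraries spread least, with a coefficient of variation of 6.39% against 15.0% in SI tuft cells. The gap to SI epithelium was a log2 fold change of 5.24 ± 0.19 (SE) for thymic tuft cells (edgeR quasi-likelihood test, Benjamini-Hochberg adjusted p = 2.22e-09) and 5.74 ± 0.20 for SI tuft cells (adjusted p = 2.87e-09). Between the organs it was -0.50 ± 0.15 (edgeR adjusted p = 0.0148). That call was lost in 7 of 20 other settings, with adjusted p = 0.0774 without SI tuft library 3, 0.180 with DESeq2 size factors and 0.0716 after subtraction of shared counts, always as a lower thymic value.

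Among the 5 relatives and coactivators of Pou2f3 listed, 3 were higher in thymic than in SI tuft cells, 4 were higher in thymic tuft cells than in SI epithelium and 2 were higher in SI tuft cells than in the epithelium, and none was lower in any comparison (edgeR, adjusted p below 0.05). The shares of all genes tested that were higher are 28.5%, 28.6% and 10.9% in these comparisons. The coactivator gene 1810046K07Rik, now called Pou2af2, had 327, 400, 387 and 555 CPM in thymic tuft cells, 633, 523 and 456 CPM in SI tuft cells and 17.5, 14.8 and 13.7 CPM in SI epithelium. It did not pass the test between the organs (log2 fold change -0.36, adjusted p = 0.129). Colca2, which encodes the other tuft cell coactivator, had 66.4 to 98.2 CPM in thymic tuft cells, 36.9 to 47.1 CPM in SI tuft cells and 17.2 to 22.9 CPM in SI epithelium, and was higher in thymic than in SI tuft cells (log2 fold change 0.94, adjusted p = 0.00199). Pou2af1, the coactivator known from B cells, had 28.1, 11.3, 43.9 and 49.9 CPM in thymic tuft cells, at most 1.75 CPM in SI tuft cells and at most 3.20 CPM in SI epithelium (thymic over SI tuft 4.94, adjusted p = 0.000106). Pou2f1, a broadly expressed relative, was also higher in thymic than in SI tuft cells, at 78.8 to 112 CPM against 45.5 to 57.6 CPM (log2 fold change 0.89, adjusted p = 0.000942). It shares 3007 exon bases with Cd247 on the other strand, and how reads there were assigned is not given. The part of Cd247 RNA in the Pou2f1 level was not tested. The summed level of 7 B cell markers was 25.7 to 42.6 CPM in thymic tuft, 2.15 to 4.57 CPM in SI tuft and 1.80 to 2.97 CPM in SI epithelium libraries, with Cd79b the most abundant at 14.1 to 33.3 CPM in thymic tuft cells. The part of B cell RNA in the Pou2af1 level was not tested.

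**Figure D1:**
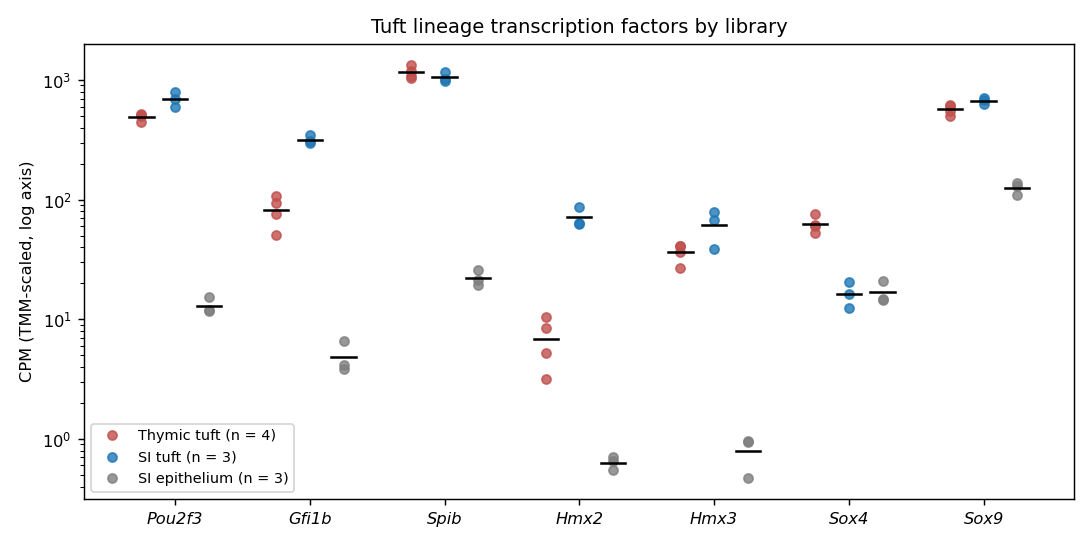
Level of each factor in each library, as TMM-scaled CPM on a log axis, for thymic tuft cells (n = 4), SI tuft cells (n = 3) and SI epithelium (n = 3). Points are libraries and black bars are group means; Hmx2 in thymic tuft cells (3.16 to 10.5 CPM) lies between SI tuft cells (63.1 to 87.0 CPM) and SI epithelium (0.546 to 0.701 CPM), and Sox4 is the one factor whose SI tuft and SI epithelium points overlap.

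Gfi1b (ENSMUSG00000026815, chromosome 2, 28609450 to 28621982, minus strand) was the factor closest to Hmx2 in its drop between the organs. It had 50.4, 108, 93.0 and 75.4 CPM in thymic tuft cells, 309, 347 and 297 CPM in SI tuft cells and 4.12, 3.84 and 6.62 CPM in SI epithelium. Every thymic library was below every SI tuft library and above every SI epithelium library. The log2 fold change was -1.96 ± 0.25 between thymic and SI tuft cells (edgeR adjusted p = 4.89e-05), 4.07 ± 0.30 between thymic tuft cells and SI epithelium (adjusted p = 4.70e-07) and 6.03 ± 0.34 between SI tuft cells and SI epithelium (adjusted p = 1.19e-07). All 3 calls held in all 20 other settings. Per kilobase, Gfi1b stood at 0.191 to 0.365 of Pou2f3 in thymic tuft libraries and at 0.733 to 0.847 of Pou2f3 in SI tuft libraries, ratios that were chosen after the values were seen.

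The erythroid and megakaryocyte markers, genes of the lineages from which Gfi1b is best known, summed over 10 genes to 4.75 to 6.69 CPM in thymic tuft, 4.96 to 8.41 CPM in SI tuft and 2.71 to 5.37 CPM in SI epithelium libraries. Gata1, the defining factor of those lineages, was at 0 in all libraries of both tuft groups; a count of 0 allows up to 3 counts, or 0.0433 to 0.0817 CPM a library. Of the 6 markers tested, 2 were higher in thymic than in SI tuft cells, where 28.5% of all genes were higher. Alas2, the erythroid heme synthesis enzyme, had 3.04, 1.22, 3.47 and 3.74 CPM in thymic tuft cells against at most 0.106 CPM in SI tuft cells (adjusted p = 0.00428), and Klf1, an erythroid factor, had 0 to 0.650 CPM in thymic tuft cells and was at 0 in SI tuft cells (adjusted p = 0.0221, up to 0.0679 without single libraries). The part of erythroid RNA in the Gfi1b level was not tested. Of 8 listed GFI1 family and corepressor genes, 1 was higher and 2 lower in thymic than in SI tuft cells, and 2 were higher and 1 lower in SI tuft cells compared with the epithelium. These 3 of 8 between the organs stand against 51.6% of all genes called, and the 3 of 8 within the intestine against 22.3%. The paralog Gfi1, known from secretory progenitors of the intestine, was lower in both tuft groups, at 0.0380 to 1.22 CPM in thymic tuft and 0.132 to 1.21 CPM in SI tuft cells, against 8.25 to 9.47 CPM in SI epithelium. Its log2 fold change over SI epithelium was -4.20 for thymic tuft cells (adjusted p = 0.00491) and -3.90 for SI tuft cells (adjusted p = 0.0285), the second of which was lost in 5 of the 10 fits that left out 1 library (up to 0.0995 without SI tuft library 3). Hmg20b, a partner of the corepressor complex, was lower in thymic than in SI tuft cells (log2 fold change -0.74, adjusted p = 0.00631) and higher in SI tuft cells compared with the epithelium (0.82, adjusted p = 0.0125, up to 0.0674 without SI tuft library 4). Kdm1a, the histone demethylase of the complex, averaged 73.5 ± 12 CPM in thymic tuft, 55.5 ± 0.81 CPM in SI tuft and 61.0 ± 0.80 CPM in SI epithelium libraries (SD) and passed no test.

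Spib (ENSMUSG00000008193, chromosome 7, 44525993 to 44532071, minus strand) was the most abundant of the 7 in tuft cells. It had 1079, 1343, 1193 and 1048 CPM in thymic tuft cells, 1159, 1010 and 989 CPM in SI tuft cells and 25.8, 21.3 and 19.5 CPM in SI epithelium. The tuft groups overlapped, and both lay far above SI epithelium. The log2 fold change between thymic and SI tuft cells was 0.15, with a 95% interval of -0.17 to 0.47 (edgeR adjusted p = 0.428). With DESeq2 size factors it was 0.39 and passed (adjusted p = 0.0412), as it did in the DESeq2 Wald test (adjusted p = 0.0272). Against SI epithelium the log2 fold change was 5.72 ± 0.19 for thymic tuft cells (adjusted p = 1.98e-09) and 5.57 ± 0.19 for SI tuft cells (adjusted p = 2.87e-09).

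Since Spib also marks other cells, their markers were read beside it. Intestinal M cell markers, 7 genes, were all higher in thymic than in SI tuft cells, with sums of 936 to 1003 CPM in thymic tuft and 89.4 to 110 CPM in SI tuft cells, against 129 to 133 CPM in SI epithelium. Of all genes tested, 28.5% were higher in thymic than in SI tuft cells. Gp2, a receptor on M cells, had 324, 375, 296 and 406 CPM in thymic tuft cells and at most 0.0528 CPM in SI tuft cells, where Spib itself had 989 to 1159 CPM. Plasmacytoid dendritic cell markers summed to 127 to 335 CPM in thymic tuft, 86.0 to 130 CPM in SI tuft and 453 to 489 CPM in SI epithelium libraries, an order set by Klk1, which had 25.1 to 203 CPM in thymic tuft, 24.6 to 43.9 CPM in SI tuft and 420 to 454 CPM in SI epithelium libraries. The other 6 markers summed to 91.8 to 133 CPM in thymic tuft, 57.5 to 85.9 CPM in SI tuft and 31.3 to 35.1 CPM in SI epithelium libraries. Tcf4 alone had 73.3 to 104 CPM, 39.3 to 62.4 CPM and 24.8 to 25.4 CPM in these. Tested were 6 of the 7, Klk1 included. Over SI epithelium 3 were higher and 1 lower in thymic tuft cells, and 2 higher and 1 lower in SI tuft cells. Klk1 was the lower one in both, and 28.6% and 10.9% of all genes tested were higher in these comparisons. Tcf4, a factor of these cells that other tissues also express, was higher than in SI epithelium in thymic tuft cells (log2 fold change 1.89, adjusted p = 1.05e-05) and in SI tuft cells (1.03, adjusted p = 0.00349), as was Bst2 (1.74, adjusted p = 0.00167, and 2.48, adjusted p = 0.000577), while Siglech reached at most 1.17 CPM in any library. Among 6 listed ETS and HMX relatives, of which 5 were tested, 3 were higher and 1 lower in thymic than in SI tuft cells, where 51.6% of all genes were called. Ehf, an epithelial ETS factor, had 674 to 765 CPM in thymic tuft, 354 to 437 CPM in SI tuft and 137 to 152 CPM in SI epithelium cells, and each of the 3 comparisons passed (log2 fold changes 0.81, 2.28 and 1.47 for thymic over SI tuft, thymic tuft over SI epithelium and SI tuft over SI epithelium). Spi1 and Spic, the close relatives of Spib known from myeloid cells, reached 1.58 to 8.16 CPM and 0.741 to 3.37 CPM in thymic tuft cells, against at most 0.364 CPM and 0 CPM in SI tuft cells. The part of other cell types in these levels was not tested.

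Hmx2 (ENSMUSG00000050100, chromosome 7, 131548773 to 131558014, plus strand) showed the widest gap between the tuft cells of the organs. It had 5.23, 8.48, 10.5 and 3.16 CPM in thymic tuft cells, 87.0, 63.1 and 63.5 CPM in SI tuft cells and 0.546, 0.701 and 0.651 CPM in SI epithelium. The 3 groups were apart, and thymic libraries varied most among themselves, with a coefficient of variation of 47.8%. The log2 fold change was -3.38 ± 0.37 between thymic and SI tuft cells (edgeR adjusted p = 1.21e-05), 3.43 ± 0.42 between thymic tuft cells and SI epithelium (adjusted p = 3.00e-05) and 6.81 ± 0.49 between SI tuft cells and SI epithelium (adjusted p = 1.13e-06). All 3 held in all 20 other settings, where the difference between the organs ran from -3.64 to -3.14.

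Hmx3 (ENSMUSG00000040148, chromosome 7, 131542867 to 131544925, plus strand) lies 3847 bases upstream of Hmx2 and showed another pattern. Its levels were 40.7, 26.8, 41.0 and 36.3 CPM in thymic tuft cells, 38.8, 78.7 and 67.2 CPM in SI tuft cells and 0.941, 0.955 and 0.469 CPM in SI epithelium. SI tuft library 2, the lowest of its group for Hmx3 and the highest for Hmx2, fell inside the thymic range. The log2 fold change between thymic and SI tuft cells was -0.76 ± 0.30 (edgeR adjusted p = 0.0479), a call that 18 of 20 other settings did not make (adjusted p 0.0173 to 0.782 over all 20). Against SI epithelium it was 5.53 ± 0.39 for thymic tuft cells (adjusted p = 3.16e-07) and 6.29 ± 0.41 for SI tuft cells (adjusted p = 4.57e-07), and both held throughout. Per kilobase of exon, Hmx2 was 0.0582, 0.143, 0.116 and 0.0394 of Hmx3 in thymic tuft libraries and 1.02, 0.363 and 0.428 of it in SI tuft libraries, which did not overlap. This ratio was chosen after the values were seen and is given without a test. Both genes lie within the annotated span of Fgfr2 on the opposite strand, share no exon bases with it, and the library kits mark no strand. Fgfr2 had 16.3 to 21.7 CPM in thymic tuft, 89.5 to 133 CPM in SI tuft and 57.9 to 71.0 CPM in SI epithelium libraries, and whether its unspliced RNA adds to Hmx2 or Hmx3 was not tested.

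Sox4 (ENSMUSG00000076431, chromosome 13, 28948919 to 28953713, minus strand), a factor tied to tuft and enteroendocrine progenitors in the mouse intestine, was the factor with more RNA in thymic tuft cells. It had 60.9, 52.7, 60.6 and 76.1 CPM in thymic tuft cells, 12.4, 16.3 and 20.4 CPM in SI tuft cells and 14.6, 21.0 and 14.9 CPM in SI epithelium. Every thymic library was above all the others, and the intestinal groups overlapped. The log2 fold change was 1.94 ± 0.25 between thymic and SI tuft cells (edgeR adjusted p = 4.73e-05) and 1.89 ± 0.25 between thymic tuft cells and SI epithelium (adjusted p = 5.50e-05), and both calls held in all 20 other settings. Between SI tuft cells and SI epithelium it was -0.04, with a 95% interval of -0.59 to 0.51 (adjusted p = 0.936), and its sign turned without SI tuft library 2 (0.12) or SI epithelium library 2 (0.15). A lincRNA on the other strand, Gm26735, shares 2616 exon bases with Sox4 and was at 0 counts in 9 of 10 libraries, with at most 1 count. How reads in that stretch were assigned is not given, so the level of Sox4 per length is uncertain. Thymocyte markers, the genes of the cells that fill the thymus, summed to 13.3 to 42.1 CPM in thymic tuft, 24.6 to 35.2 CPM in SI tuft and 2.80 to 6.24 CPM in SI epithelium libraries, with Ptcra at 0 in thymic tuft cells. Of the 10 tested, 1 was higher and 1 lower in thymic than in SI tuft cells, where 51.6% of all genes were called. The higher one was Themis, a T cell signalling gene, at 11.7, 4.03, 8.15 and 0.190 CPM in thymic tuft cells against at most 0.354 CPM in SI tuft cells (log2 fold change 5.16, adjusted p = 0.00976), and the lower one was Cd3e. Cd4 had 1.81 to 9.01 CPM in thymic tuft cells and 0.0528 to 1.43 CPM in SI tuft cells. Rag1 had 0.283 to 8.27 CPM in thymic tuft cells and 0 to 0.389 CPM in SI tuft cells. Neither passed the edgeR test between the organs (adjusted p = 0.05002 for Cd4 and 0.0661 for Rag1). Also without passing, Cd3d (log2 fold change 0.53) and Cd8b1 (1.43) had higher thymic values. Cd3g (-2.07), Cd2 (-2.02), Lck (-0.76) and Cd8a (-0.03) had lower ones and did not pass. Over SI epithelium, 5 of the 10 were higher in thymic tuft cells and 0 lower, where 28.6% of all genes were higher. Cd4 (edgeR adjusted p = 0.0179) and Rag1 (0.00822) were among them. The Cd4 call was lost in 2 of the 10 fits that left out 1 library. Sox4 was highest in thymic library 4, where thymocyte markers went both ways. Themis, Lck and Cd3d were lowest there, and Cd8a and Cd8b1 were highest. Markers of medullary thymic epithelium summed to 2661 to 3064 CPM in thymic tuft, 1.12 to 4.52 CPM in SI tuft and 12.4 to 20.1 CPM in SI epithelium libraries, and the part of thymocytes and of medullary epithelium in the Sox4 level was not tested.

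Sox9 (ENSMUSG00000000567, chromosome 11, 112782224 to 112787760, plus strand) was abundant in all 3 groups. It had 503, 620, 552 and 610 CPM in thymic tuft cells, 634, 677 and 709 CPM in SI tuft cells and 110, 130 and 138 CPM in SI epithelium. The highest thymic library was just below the lowest SI tuft library, and both tuft groups were well above SI epithelium. The log2 fold change between thymic and SI tuft cells was -0.24, with a 95% interval of -0.53 to 0.06 (edgeR adjusted p = 0.163), and with DESeq2 size factors it was 0.01. Against SI epithelium it was 2.18 ± 0.15 for thymic tuft cells (adjusted p = 2.03e-07) and 2.42 ± 0.15 for SI tuft cells (adjusted p = 3.50e-07). Paneth cell markers, genes of a Sox9-expressing cell type, had sums of 161 to 369 CPM in thymic tuft, 142 to 551 CPM in SI tuft and 12670 to 16498 CPM in SI epithelium libraries, and in thymic tuft cells the sum was lowest in library 4. Intestinal stem cell markers summed to 105 to 224 CPM in thymic tuft, 242 to 299 CPM in SI tuft and 870 to 1130 CPM in SI epithelium libraries. In these bulk samples, fewer cells of a type and less RNA per cell cannot be told apart.

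Of the 4 tabulated relatives of Sox4 and Sox9, 3 were tested. Sox8, a SOX E factor like Sox9, was higher in thymic than in SI tuft cells, at 49.7, 33.6, 37.9 and 32.8 CPM against 3.28, 6.29 and 3.22 CPM (log2 fold change 3.17, edgeR adjusted p = 1.41e-05), and was at 0.433 to 0.616 CPM in SI epithelium. Sox10, the other SOX E gene, had 0.411, 0.735, 0.318 and 5.68 CPM in thymic tuft cells against at most 0.0544 CPM in SI tuft cells (adjusted p = 0.0169). Thymic library 4 carries that mean, which is 0.488 ± 0.22 CPM (SD, n = 3) without it (edgeR adjusted p = 0.0395), and the call was lost in 3 of the 10 fits that left out 1 library. Listed factors of the other secretory lineages of the intestine, with Hes1 among the 11, were mostly lower in tuft cells. Of the 11, 1 was higher and 10 were lower in thymic tuft cells than in SI epithelium. In SI tuft cells compared with the epithelium 7 were lower and none higher. Hes1, which opposes the secretory fate, is among those lower in both (log2 fold changes -1.59 for thymic and -1.66 for SI tuft cells). The shares of all genes that were lower in these comparisons are 22.3% and 11.4%. Atoh1, the factor of the secretory fate, had 1.91, 1.49, 0.881 and 0.0380 CPM in thymic tuft and 4.37 to 5.17 CPM in SI tuft cells, against 111 to 205 CPM in SI epithelium. Its log2 fold change over SI epithelium was -7.12 for thymic tuft cells (adjusted p = 6.36e-06) and -4.95 for SI tuft cells (adjusted p = 0.000450). Counts matching the SI epithelium partner came to 102%, 78.1% and 88.4% of the Atoh1 counts of thymic libraries 1, 2 and 3, and library 4, which has no such partner, had the lowest level. With them subtracted, the thymic log2 fold change over SI epithelium was -10.30. Insm1, an enteroendocrine factor, was the one higher in thymic tuft cells, at 14.7 to 41.5 CPM against 4.65 to 9.11 CPM in SI epithelium (1.73, adjusted p = 0.0101, but 0.0562 without SI epithelium library 3), and was at 0.211 to 0.708 CPM in SI tuft cells.

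**Figure D2:**
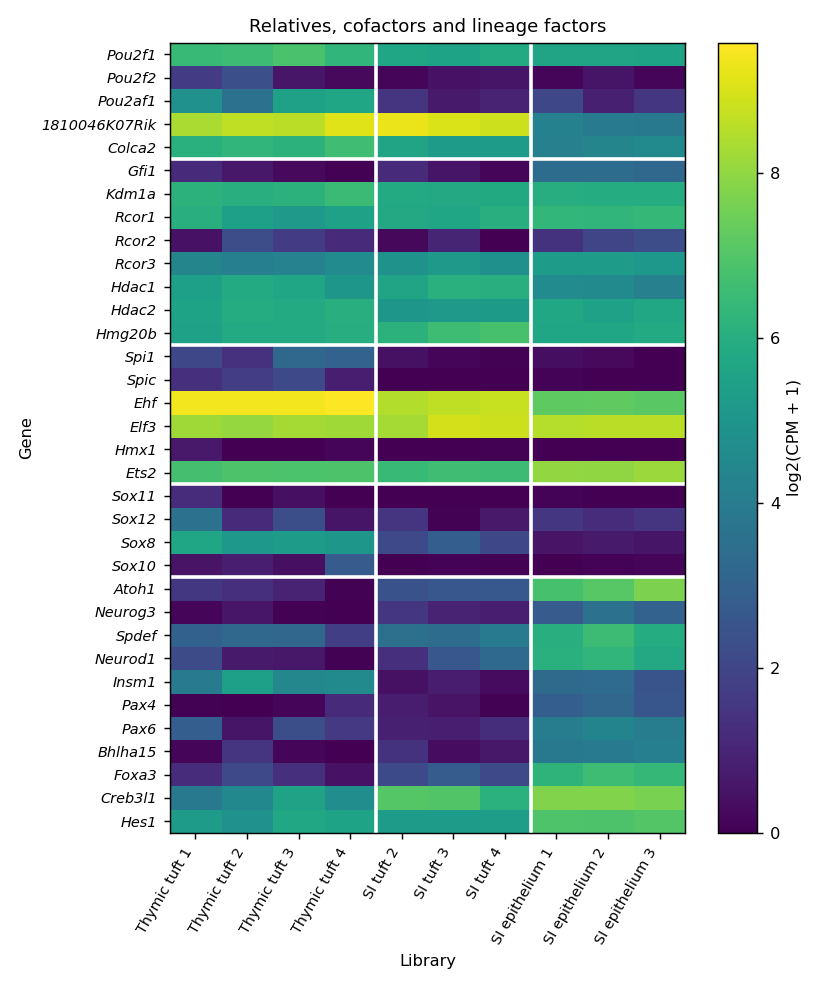
Levels of 34 relatives, cofactors and lineage factors in each library, as log2(CPM + 1), with thymic tuft, SI tuft and SI epithelium libraries from left to right and white lines between lists. 1810046K07Rik is high in both tuft groups, Sox8 and Pou2af1 in thymic tuft cells, and Atoh1 (111 to 205 CPM) in SI epithelium.

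Counted together, 6 of the 7 factors were higher and none lower in SI tuft cells compared with the epithelium, where 22.3% of all 19281 genes were called (10.9% higher), and 6 of 7 had groups that did not overlap, against 51.1% of all genes. In thymic tuft cells all 7 were higher than in SI epithelium, where 50.9% of genes were called (28.6% higher), and all 7 had groups that did not overlap, against 55.5%. Between thymic and SI tuft cells 1 was higher, 4 were lower and 2 did not pass, where 51.6% of genes were called (28.5% higher and 23.1% lower), and 5 of 7 did not overlap, against 51.2% of all genes. Calls were common between the organs, so that a call alone sets a factor little apart there. The median log2 fold changes of the 7 were -0.50 for thymic over SI tuft, 4.07 for thymic tuft over SI epithelium and 5.74 for SI tuft over SI epithelium, against 0.12, 0.15 and -0.10 over all genes tested. The comparisons share groups and are not independent of each other.

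**Figure D3:**
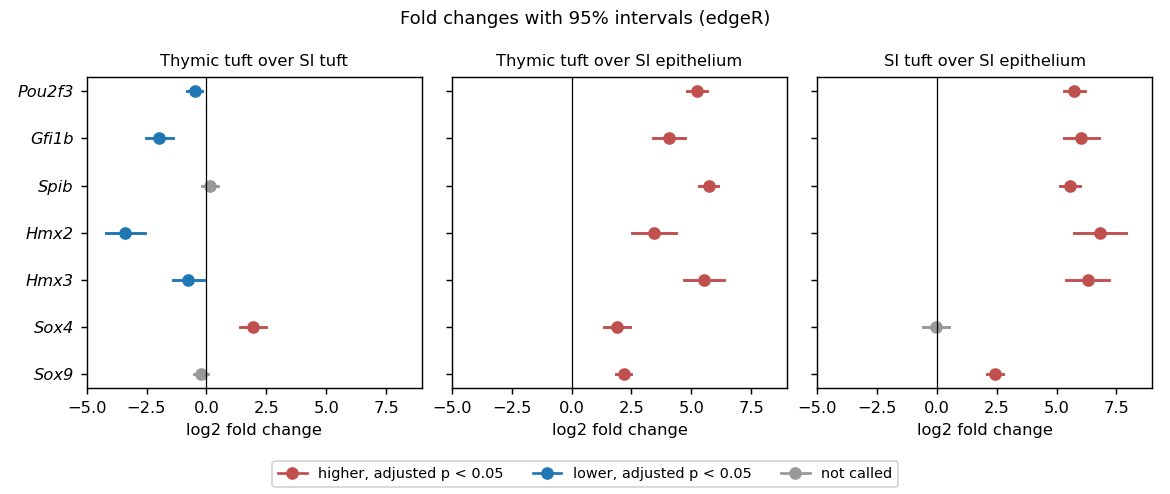
Log2 fold changes of the 7 factors with 95% intervals from edgeR, for thymic tuft over SI tuft, thymic tuft over SI epithelium and SI tuft over SI epithelium. Red marks an adjusted p below 0.05 and higher, blue below 0.05 and lower, grey not called; Hmx2 (-3.38) and Sox4 (1.94) mark the ends of the first panel.

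Per kilobase of exon the order of the factors differed between the groups. In thymic tuft cells Spib came first, at 406 CPM per kilobase, then Pou2f3 at 159, Sox9 at 138, Gfi1b at 44.6, Hmx3 at 24.9, Sox4 at 13.0 and Hmx2 at 2.13. The ranges of Pou2f3 and Sox9 overlapped, as did those of Gfi1b and Hmx3. SI tuft cells had Spib first as well, at 367 CPM per kilobase, then Pou2f3 at 225, Gfi1b at 174, Sox9 at 163, Hmx3 at 42.2, Hmx2 at 22.1 and Sox4 at 3.41. Here the neighbours that overlapped were Gfi1b with Sox9 and Hmx3 with Hmx2. In SI epithelium Sox9 led at 30.5 CPM per kilobase, followed by Spib at 7.73, Pou2f3 at 4.21, Sox4 at 3.51, Gfi1b at 2.66, Hmx3 at 0.541 and Hmx2 at 0.197. Sox4 overlapped there with both Pou2f3 and Gfi1b.

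**Figure D4:**
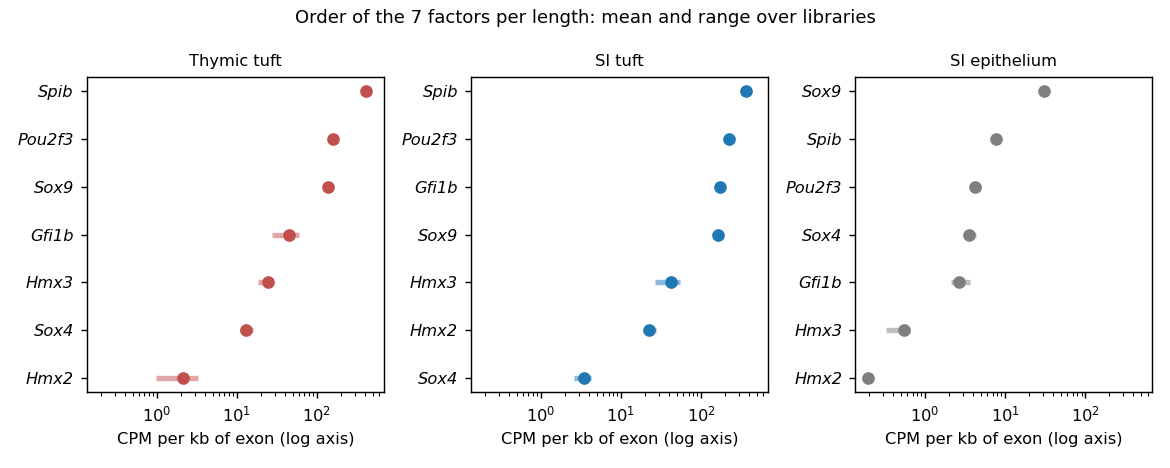
Mean level of each factor per kilobase of exon (points, log axis) with the range over libraries (bars), ordered within thymic tuft cells, SI tuft cells and SI epithelium. Spib leads both tuft groups (406 and 367 CPM per kilobase), Sox9 leads SI epithelium (30.5), and Hmx2 is last in thymic tuft cells and SI epithelium.

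The low SI epithelium levels were set beside those of tuft cell markers. As a percentage of the SI tuft mean, the SI epithelium mean was 0.888% for Hmx2, 1.28% for Hmx3, 1.53% for Gfi1b, 1.87% for Pou2f3 and 2.11% for Spib, against a median of 1.37% over 24 tuft cell markers (0.810% to 12.9%). Sox9, at 18.7%, and Sox4, at 103%, lay above all 24. Counts matching the partner thymic library made up 16.2% to 33.0% of the Pou2f3 counts of SI epithelium libraries, 4.21% to 19.0% for Gfi1b, 30.6% to 42.7% for Spib, 4.44% to 14.6% for Hmx2 and 19.0% to 48.0% for Hmx3. For Sox4 and Sox9 the share was at most 3.82%. With these subtracted, the log2 fold change of SI tuft over SI epithelium became 6.14 for Pou2f3, 6.19 for Gfi1b, 6.20 for Spib, 6.93 for Hmx2 and 6.82 for Hmx3. That of thymic tuft cells over SI epithelium became 5.73 for Pou2f3, 4.31 for Gfi1b, 6.43 for Spib, 3.63 for Hmx2 and 6.14 for Hmx3, and it was 1.99 for Sox4 and 2.29 for Sox9. The source of the counts that were left was not tested. As a percentage of SI tuft cells, thymic levels were 9.60% for Hmx2, 25.7% for Gfi1b, 58.8% for Hmx3, 70.9% for Pou2f3, 84.8% for Sox9, 111% for Spib and 383% for Sox4, while the 24 markers had a median of 37.2% (2.69% to 1508%). Of these markers 18 were lower, 2 higher and 4 not called, where 23.1% of all genes tested were lower and 28.5% higher.

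**Figure D5:**
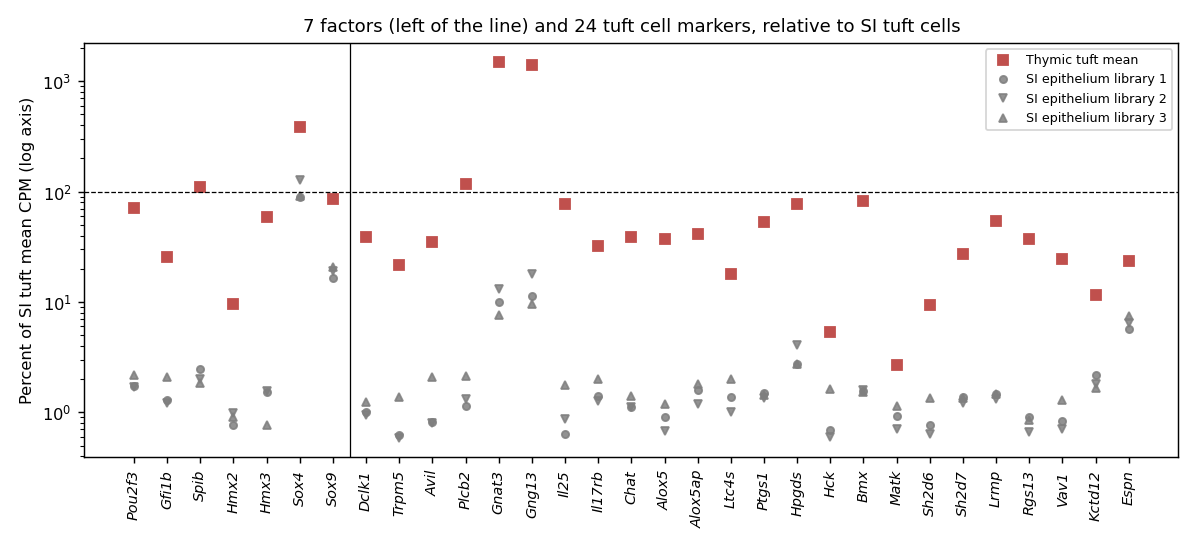
Thymic tuft mean (red squares) and each SI epithelium library (grey) as a percentage of the SI tuft mean, on a log axis, for the 7 factors and 24 tuft cell markers. Most markers lie near 1% in SI epithelium (median 1.37%), whereas Sox9 (18.7%) and Sox4 (103%) lie above them.

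The genes with the pattern most like each factor were found among 12289 protein-coding genes, by the root mean square difference of centred log2 CPM over the 10 libraries. For Pou2f3 they were Pik3cg (0.19), Ptgs1 (0.23) and Pygl (0.24), and for Gfi1b Ptpn6 (0.27), Ltc4s (0.31) and Il17rb (0.34). Spib was closest to Bmx (0.24), Pik3cg (0.27) and Hap1 (0.30). Nearest to Hmx2 were Sh2d6 (0.42), Cd300lf (0.46) and Atp2b2 (0.49), and to Hmx3 Nebl (0.30), Ptgs1 (0.42) and Kcnd3 (0.42). Kremen1 (0.22), Nfe2l1 (0.24) and Pim1 (0.25) were closest to Sox4, and Zfhx3 (0.19), Slc2a1 (0.21) and Kdm4a (0.23) to Sox9. Many genes were about as near to some factors. Within a difference of 0.5 lay 282 genes for Sox4, 151 for Sox9, 41 for Pou2f3, 23 for Gfi1b and 22 for Spib. Hmx3 had 9 such genes and Hmx2 had 3. Among the factors themselves Pou2f3 and Spib were the closest pair (0.35), while the neighbours Hmx2 and Hmx3 were 1.41 apart. The levels show what the measure picks up. Sh2d6 averaged 1330 CPM in thymic tuft, 14043 CPM in SI tuft and 129 CPM in SI epithelium libraries, a gap between the organs like that of Hmx2. Kremen1 averaged 38.1 CPM in thymic tuft, 8.55 CPM in SI tuft and 9.31 CPM in SI epithelium libraries, and like Sox4 was highest in thymic tuft cells.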

How the data were processed

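The authors deposited gene counts. STAR, DESeq2 and the build GRCm38 are named in the submitters' processing notes. The versions, the annotation and the counting settings are not given in the sources used here. The deposited counts of 43432 identifiers were used unchanged, and 42548 of them were matched to symbols in GENCODE M21. Per the sample labels each library is 1 mouse, with poly(A) RNA, NuGEN Ovation V2 and Nextera XT kits. Per the series' design text the authors discarded 1 SI tuft and 1 SI epithelium library.

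Genes were kept by filterByExpr (minimum count 10, total 15), which left 19281. CPM used TMM-scaled library sizes, and 3 counts in a library correspond to 0.0433 to 0.0817 CPM. The quasi-likelihood test of edgeR 4.0.16 (R 4.3.3) used one model of all 10 libraries (a mean for each group), adjusted by Benjamini-Hochberg over all genes tested and called below 0.05. It was first checked on simulated counts. The SE is the log2 fold change divided by the root of F. Levels between genes are per kilobase of merged exons. No pair of libraries was identical.

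The 7 genes and the gene lists were chosen with earlier results of these data known. Named beside the 7 genes were the 3 genes nearest in pattern to each (highest group mean at least 5 CPM), the most abundant members of marker lists and called members of factor lists. Gm26735, Fgfr2, Kdm1a, Gata1, Ptcra, Klk1, Bst2, Siglech, Themis, Cd3e, Cd4, Rag1, Alas2, Klf1 and the ratios between factors were chosen after their values were seen. So were Cd3d, Lck, Cd8a, Cd8b1 and Cd247. Shares of partner libraries were median ratios. That estimator replaced least squares after its result was seen, and least squares was kept as an added alternative. Other alternatives were upper quartile scaling, DESeq2 size factors, 10 CPM in 3 libraries, no filter, the DESeq2 1.42.0 Wald test, only 2 groups, a replicate block, a minimum 2-fold change and leaving out each library. The marker sum without Klk1 was added after the data were seen. A comparison of coding sequences is not reported here.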

Additional observations from a re-analysis of the deposited data

How the results depend on the processing

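Over 20 other settings, 10 of them leaving out 1 library each, 389 of 420 values for the 7 factors kept their direction and side of the threshold. With SI epithelium as the comparison, 6 factors were higher in SI tuft cells and 7 in thymic tuft cells in every setting. Between thymic and SI tuft cells the number lower went from 4 to 2 with DESeq2 size factors, the DESeq2 Wald test, only the 2 groups compared, a minimum 2-fold change, shared counts subtracted by either estimator, and ranged from 2 to 4 when single libraries were left out (2 without SI tuft library 3). The lost factors were Pou2f3 and Hmx3. The number higher went from 1 to 2, by Spib, with DESeq2 size factors and the DESeq2 Wald test. DESeq2 size factors moved the median log2 fold change of all genes by 0.24 between the tuft groups and by 0.23 for thymic tuft over SI epithelium, and upper quartile scaling by 0.12 between the tuft groups. The sign of Sox4 in SI tuft over SI epithelium turned without SI tuft library 2 (0.12) and without SI epithelium library 2 (0.15; lowest -0.23 without SI tuft library 4), and that of Sox9 in thymic over SI tuft turned with DESeq2 size factors (0.00804) and the DESeq2 Wald test (0.00802). The cause was not tested.

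Over all genes, 9945 were called between thymic and SI tuft cells, 9811 between thymic tuft cells and SI epithelium and 4300 between SI tuft cells and SI epithelium. A minimum 2-fold change gave 6383, 6307 and 1805, the stricter filter gave 6598 for the first, as fewer genes were tested, and only 2 groups gave 6988 for the last. Leaving out single libraries gave 8343 to 10028, 7630 to 10041 and 2888 to 5270. The replicate number as a block gave 8939, 8981 and 3202 and lost the Hmx3 call between the organs (adjusted p = 0.0676). No pair of same-numbered libraries had correlated deviations above 0.1 (-0.0343 to 0.0987). The highest was that of SI epithelium library 2 and thymic tuft library 2, which share counts, and the others are tied by a number alone. Counts of list members stayed within 1.5 times in 1506 of 1680 values.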
